A study of Mus musculus with 24 samples.

Results

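The response of 2 mouse tumour cell lines, MC38 and AKR, to the same edit was compared gene by gene. MC38 is labelled as a colon adenocarcinoma line and AKR as an esophageal carcinoma line. In each line, cells that carried a guide RNA against B2m (sgB2m) were set against cells that carried a non-targeting guide (sgNT). The series design states that B2m was knocked out in 4 tumour lines to remove surface MHC class I, and 12 of the 24 libraries, 3 per line and guide, belong to these 2 lines. The 4 groups were MC38 sgB2m, MC38 sgNT, AKR sgB2m and AKR sgNT. All cells grew in DMEM with serum, no other treatment is labelled, and the strand-specific libraries started from total RNA. It is not stated whether the edited cells were a clone or a pool, or whether the 3 libraries of a group came from separate cultures, so p-values measure only the spread between these libraries.

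The quantity followed is a difference of differences, that is the log2 change of sgB2m over sgNT in MC38 minus the same log2 change in AKR. Of 32032 genes listed in either line's table, 14674 had 3 or more libraries in each table with a log2 value of 3.5 or above and were tested. Another 1858 genes reached that level in MC38 alone and 1208 in AKR alone, and these were not compared. The deposited values are log2 normalised counts, scaled separately in each line, so levels are compared only between the 6 libraries of 1 line, while responses can be set side by side. Calls rest on limma's moderated two-sided test at an adjusted p under 0.05 (Benjamini-Hochberg over the 14674 genes). A gene is described as opposed where it was called in both lines with opposite signs and also by the difference, and as shared where it was called in both lines with the same sign.

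B2m encodes beta-2-microglobulin, the light chain that MHC class I heavy chains need to fold and reach the cell surface. Class I molecules show peptides, cut by the proteasome and pumped into the endoplasmic reticulum by TAP, to CD8 T cells, and their genes are induced by interferons through STAT and IRF factors. Tumour lines grown alone also run programmes that sense amino acid supply, unfolded protein, oxidants and oxygen, through ATF4, HSF1, ATF6 and XBP1, NRF2 and HIF-1, and each programme has a set of well-known target genes.

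The depth was 33.3 to 38.3 M reads in genes in MC38 sgB2m, 28.4 to 49.7 M in MC38 sgNT, 29.7 to 32.2 M in AKR sgB2m and 28.3 to 32.9 M in AKR sgNT. The median SD between the 3 libraries of a group was 0.0891 (MC38 sgB2m), 0.121 (MC38 sgNT), 0.106 (AKR sgB2m) and 0.0859 (AKR sgNT) on the log2 scale. The labelled tissues were only partly borne out by markers. Of 14 intestinal markers, 10 had no reads in MC38, among them Cdx2, Cdh17 and Krt20, and of 20 squamous markers 5 had no reads in AKR, among them Krt5 and Krt6a. In AKR 3 of the intestinal markers had no reads, and the factor Cdx2 had a mean log2 value of 8.32 in sgB2m and 7.75 in sgNT, and the keratin Krt20 of 9.05 in sgB2m and 7.46 in sgNT. The summed normalised count of the intestinal markers was 926 to 1080 in AKR sgB2m and 463 to 594 in AKR sgNT, and 129 to 204 in MC38 sgB2m and 149 to 177 in MC38 sgNT. In MC38 8 of the squamous markers had no reads, while the squamous keratin Krt14 had a mean log2 value of 10.78 in sgB2m and 10.94 in sgNT. A mean log2 value of 6 was reached by 6 squamous markers in AKR sgB2m and 5 in AKR sgNT, and by 3 in each MC38 group. Krt13, Sprr1a, Sox2, Sfn and Ppl reached it in each AKR group. For intestinal markers these counts were 3 in each AKR group and 1, Lgals4, in each MC38 group. The squamous sum was 2069 to 2191 in AKR sgB2m and 1742 to 1968 in AKR sgNT. In MC38 it was 2325 to 2396 in sgB2m and 2517 to 2768 in sgNT. Of 12 T and NK cell markers, 10 had no reads in MC38 and 11 had none in AKR. The summed normalised count of 12 myeloid markers was 7225 to 7583 in AKR sgB2m and 2749 to 2886 in AKR sgNT, with Cd68, a lysosomal protein also made outside the myeloid lineage, at 6971 and 2528 on average. Adgre1, Aif1, Cd52 and Tyrobp had no reads in AKR. The same sum was 1657 to 1858 in MC38 sgB2m and 1702 to 1912 in MC38 sgNT. The part of these sums in the results was not tested.

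B2m transcripts fell in both lines and were lost in neither. In MC38 the 3 sgB2m libraries had 9721, 9507 and 9157 normalised counts of B2m, against 31030, 32810 and 33410 in sgNT (log2 change -1.78, limma adjusted p 2.15e-11). In AKR the sgB2m libraries had 4694, 4096 and 4137, against 12480, 13150 and 12830 in sgNT (log2 change -1.57, adjusted p 1.71e-10). Every sgB2m library lay below every sgNT library of its line. In bulk libraries, fewer cells with a transcript and less transcript per cell cannot be told apart. The fall was larger in MC38 by 0.20 ± 0.072 (SE) on the log2 scale, a difference that was called (adjusted p 0.0343) but lost its call with each of 7 libraries left out in turn (MC38 sgB2m replicates 2 and 3, MC38 sgNT replicates 2 and 3, AKR sgB2m replicate 1, and AKR sgNT replicates 1 and 3, adjusted p 0.0552 to 0.0841). Here and below, ± gives the SE of a log2 change unless SD is named. B2m lies at chr2:122147686-122153083 on the plus strand of GRCm38.

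Genes called in both lines were opposed more often than shared. In MC38, 5237 genes (35.7%) were called, 2498 higher (17%) and 2739 lower (18.7%) in sgB2m. In AKR, 6072 genes (41.4%) were called, 2946 higher (20.1%) and 3126 lower (21.3%). The response differed between MC38 and AKR for 6582 genes (44.9%), 3229 more positive in MC38 (22%) and 3353 more negative (22.8%). With each library centred on its median these were 3673 and 2919, so the larger side depended on the scaling. Of the 2805 genes called in both lines, which are 53.6% of the MC38 calls and 46.2% of the AKR calls, 65.2% were opposed and 34.8% were shared. That made 1830 opposed genes (12.5% of those tested), 945 up in MC38 and down in AKR (6.44%) and 885 the other way round (6.03%), and 975 shared genes (6.64%), 467 up (3.18%) and 508 down (3.46%). The difference was also called for 296 of the shared genes, whose 2 responses had unequal size. Another 1700 genes were called in MC38 and by the difference but not in AKR, and 2339 were called in AKR and by the difference but not in MC38. Among genes changed at least 2-fold in both lines, 68 were opposed (40 up in MC38, 28 down in MC38) and 41 were shared (22 up, 19 down). Across all tested genes the 2 responses had a Pearson r of -0.173 and a Spearman rho of -0.187, given as a description across genes that are not independent. The 869 tested genes of chromosome 1 had a median change of 0.21 in MC38 and 0.0002 in AKR, and the 388 of chromosome 18 had -0.22 and -0.056. Of the tested genes named in the text, Atf6, Col3a1, Col6a3, Ephx1, Hsd17b7, Hspd1, Hspe1, Ifi207, Phlda3, Pla2g4a, Psmd1, Ptgs2, Steap3 and Tgfb2 lie on chromosome 1 and Apcdd1, Cd74, Hbegf, Nars and Tslp on chromosome 18. With each chromosome's median removed, 1701 genes were opposed and 805 shared, an alternative chosen after seeing the data.

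**Figure D1:**
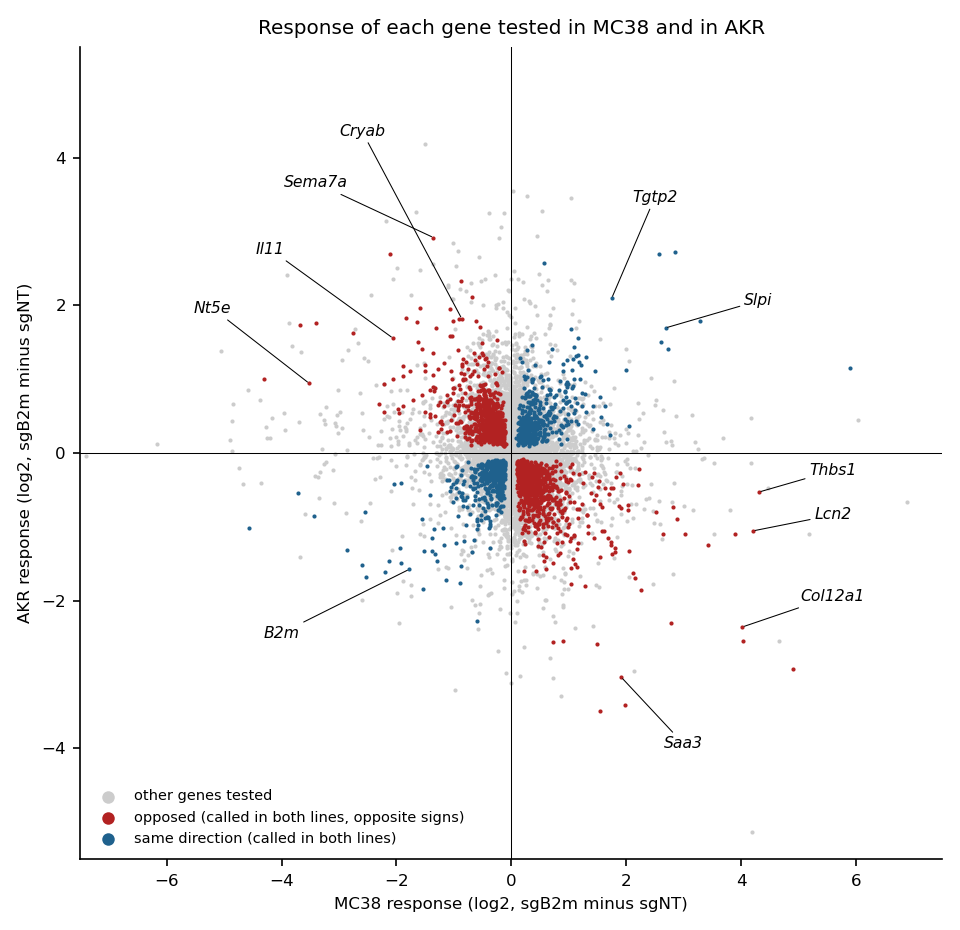
Log2 change of sgB2m over sgNT in MC38 (x axis) and in AKR (y axis) for the 14674 tested genes, with 1830 opposed genes in red, 975 shared genes in blue, all others in grey and 11 genes labelled. Opposed genes fill the upper left and lower right of the plot, with Col12a1 at the lower right and Sema7a at the upper left, while B2m lies at -1.78 and -1.57 in the lower left.

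Of the 20 lists described at length, acute-phase and complement genes had the highest share of opposed members (66.7%). These are secreted proteins of inflammation and their regulators, driven in many tissues by IL-6, STAT3 and C/EBP factors. Of 25 genes in the list, 12 were tested. Of those, 8 were opposed, all up in MC38 and down in AKR, 1 was shared (Cebpd, a C/EBP factor), and 11 rose in MC38. The median change was 1.97 in MC38 and -0.36 in AKR, against -0.01 and 0.0035 over all tested genes. Saa3, an acute-phase serum amyloid, had 797, 853 and 822 normalised counts in MC38 sgB2m, against 202, 176 and 290 in MC38 sgNT. It had 38.8, 7.14 and 18.8 counts in AKR sgB2m, against 159, 155 and 142 in AKR sgNT. Its difference was 4.95 ± 0.56 with all libraries and 4.36 without AKR sgB2m replicate 2, the library with the lowest count. Lcn2, the siderophore-binding protein lipocalin 2, had 1305, 1418 and 1458 counts in MC38 sgB2m, against 81.5, 48.6 and 103 in MC38 sgNT. It had 164, 108 and 164 counts in AKR sgB2m, against 313, 308 and 272 in AKR sgNT. The groups did not overlap in either line, and the difference was 5.27 ± 0.32 (limma adjusted p 3.22e-08). Serpina3g, a serine protease inhibitor of a tandem gene family whose reads may be split, changed by 2.88 in MC38 and -0.89 in AKR. Masp1, a protease of the lectin pathway of complement that is outside the list, likewise changed by 3.42 in MC38 and -1.24 in AKR. C3 and Il6, picked after values were seen, rose in MC38 (2.78 and 2.35) and were not called in AKR (0.17 and -0.62). The AKR groups of C3 overlapped. Those of Il6 did not, at 24.9, 16.3 and 26.3 counts in sgB2m against 45.2, 31.1 and 28.9 in sgNT. Without AKR sgB2m replicate 2 or AKR sgNT replicate 1 the list held no shared gene.

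The promoter of Saa3, which joins the opposed genes with a well-known C/EBP-driven class, is printed because 8 of the 9 promoters matched for this list held the C/EBP-like letters TTNNGNAA (88.9%), against 36.8% of all 32851 promoters. The search covered the 250 bases before each start in RefSeq on GRCm38.p6, on both strands, and matched 8 of the 12 tested genes. The Saa3 window holds 4 matches, in capitals, between 216 and 99 bases before the start, at chr7:46715677-46715926 on the minus strand. A match is a description of letters and does not show a bound site.
Saa3: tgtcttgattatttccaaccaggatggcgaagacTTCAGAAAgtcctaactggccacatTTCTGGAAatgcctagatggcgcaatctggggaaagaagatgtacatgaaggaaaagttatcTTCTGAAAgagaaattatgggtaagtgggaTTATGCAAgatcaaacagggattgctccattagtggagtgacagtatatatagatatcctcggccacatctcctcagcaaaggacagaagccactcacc

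**Figure D2:**
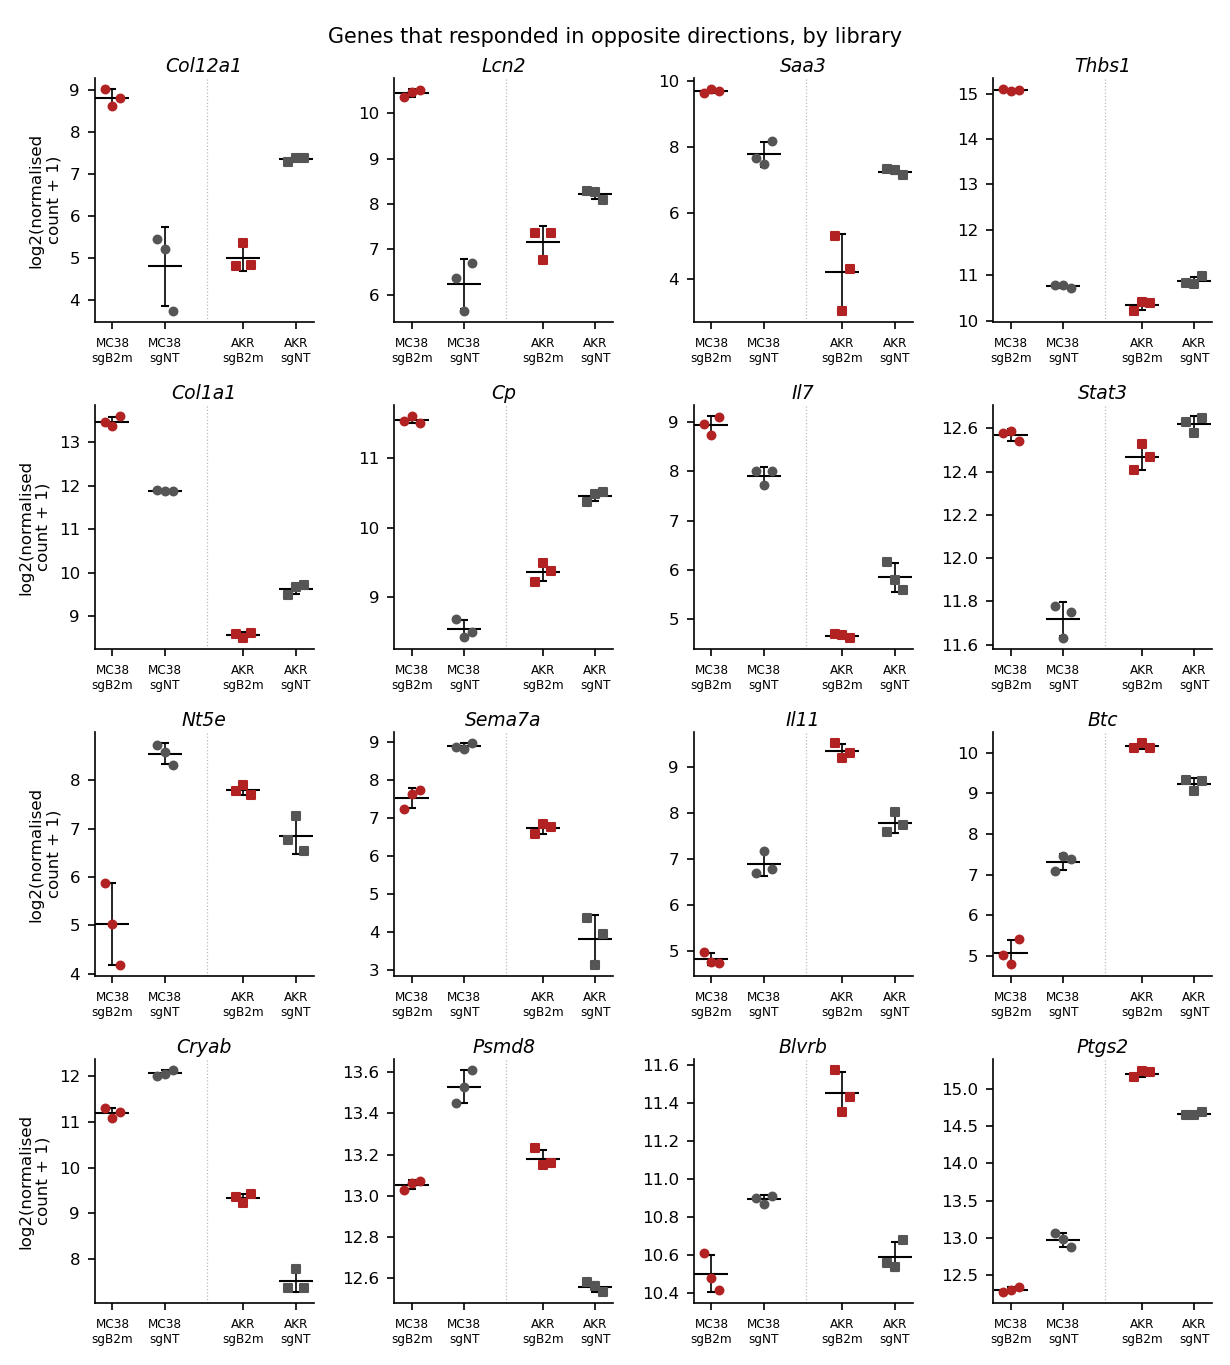
Log2(normalised count + 1) of 16 opposed genes in every library (y axis), with sgB2m in red and sgNT in grey, MC38 as circles and AKR as squares, and a bar for the mean ± SD of 3 libraries. In each gene the red and grey points stand in one order in MC38 and in the reverse order in AKR, for example Col12a1 with mean counts of 454 (sgB2m) and 30.4 (sgNT) in MC38 and of 31.3 (sgB2m) and 162 (sgNT) in AKR.

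Matrix and adhesion genes made up several of the other genes with the highest differences. Thbs1, which encodes thrombospondin 1, an adhesive matrix glycoprotein, had 34790, 34130 and 34700 counts in MC38 sgB2m, against 1773, 1756 and 1679 in MC38 sgNT. In AKR it had 1183, 1367 and 1348 counts in sgB2m, against 1811, 1785 and 2022 in sgNT. The change was much larger in MC38 than in AKR, and of opposite sign (4.31 and -0.53). Col12a1, a fibril-associated collagen, changed by 4.02 in MC38 and -2.36 in AKR. Fat4, an atypical cadherin, changed by 3.89 and -1.10. Elmo1, which acts with DOCK proteins on Rac in cell migration and engulfment, changed by 2.26 and -1.86, and Slc9a9, an endosomal sodium and proton exchanger, by 1.49 and -2.59.

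The collagen list was split. Of 37 collagen genes 19 were tested, and 8 were opposed, 7 of them up in MC38 and down in AKR. Besides Col12a1 these were the fibrillar chains Col1a1 (1.59 in MC38, -1.05 in AKR), Col3a1 (0.78, -0.10) and Col5a1 (1.19, -0.28), the basement membrane chain Col4a5 (1.62, -0.48), Col16a1 (0.45, -0.46) and Col6a3 (0.36, -0.68). Col1a1 had 11160, 10610 and 12360 counts in MC38 sgB2m, against 3827, 3764 and 3754 in MC38 sgNT. In AKR it had 383, 359 and 393 counts in sgB2m, against 714, 814 and 834 in sgNT, so the groups were apart in both lines. Col1a2, the other chain of type I collagen, was lower in MC38 sgB2m, at a mean log2 value of 12.29 against 13.5 in MC38 sgNT. It was not tested because of its low AKR values (mean log2 2.62 in sgB2m and 2.21 in sgNT). Col7a1, the anchoring fibril collagen, was opposed the other way (-0.20 in MC38, 0.40 in AKR). The paired basement membrane chains Col4a1 and Col4a2 fell in both lines (-0.64 and -0.34 in MC38, -0.41 and -0.36 in AKR), as did Col6a1, Col6a2 and Col18a1, so 5 members were shared, all down. The median of the list was -0.25 in MC38 and -0.36 in AKR. The summed count of 7 fibroblast markers, Col1a1, Col1a2 and Col3a1 among them, was 79870 to 81960 in MC38 sgB2m and 46530 to 48770 in MC38 sgNT, and 14020 to 14430 in AKR sgB2m and 15270 to 15780 in AKR sgNT, with Lum at 0 in both lines. Most of the AKR sum was Col3a1 (mean log2 13.72 in sgB2m, 13.83 in sgNT), while Dcn was at 1.37 and 0.90 there. In MC38 Col3a1 was at 15.4 and 14.62, and Dcn at 13.75 and 11.28. The sum is thus not separate from the collagens, and its part in the collagen result was not tested.

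Amino acid response genes, the targets of ATF4 that import amino acids, charge tRNAs and make serine and cysteine, rose in part in MC38 and fell widely in AKR. Of 31 tested members, 13 rose and 4 fell in MC38, while none rose and 27 fell in AKR. That left 13 opposed genes, all up in MC38 and down in AKR, and 2 shared genes that fell in both (Nars, an asparaginyl-tRNA synthetase, and Ppp1r15a, a phosphatase subunit that acts on eIF2alpha). The median change was 0.087 in MC38 and -0.40 in AKR. Cth, which makes cysteine from cystathionine, had 316, 392 and 318 counts in MC38 sgB2m, against 215, 214 and 211 in MC38 sgNT. It had 797, 748 and 728 counts in AKR sgB2m, against 1268, 1267 and 1279 in AKR sgNT. No library of one guide reached the range of the other guide in either line. Vldlr, a lipoprotein receptor induced by ATF4, changed by 0.99 in MC38 and -0.40 in AKR. Atf5, an ATF4-related transcription factor, changed by 0.28 and -1.07, and Slc6a9, a glycine transporter, by 0.47 and -0.85. Asns (asparagine synthetase) and Slc7a11 (the cystine importer), picked after values were seen, changed by 0.22 and 0.49 in MC38 and by -0.40 and -0.39 in AKR. The opposed count was 11 to 16 as single libraries were left out, and the shared count was 4 without AKR sgB2m replicate 1.

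The C/EBP-ATF composite letters TGATGNAA stood in 7 of the 31 promoters matched to 24 of the tested members (22.6%), against 3.45% of all promoters, in the same 250-base window and on both strands. The Vldlr promoter, at chr19:27216770-27217019 on the plus strand of GRCm38.p6 and also from RefSeq, is printed as that of 1 of the 4 opposed members that hold them, the others being Asns, Pck2 and Slc7a11. Its match, in capitals, begins 200 bases before the start.
Vldlr: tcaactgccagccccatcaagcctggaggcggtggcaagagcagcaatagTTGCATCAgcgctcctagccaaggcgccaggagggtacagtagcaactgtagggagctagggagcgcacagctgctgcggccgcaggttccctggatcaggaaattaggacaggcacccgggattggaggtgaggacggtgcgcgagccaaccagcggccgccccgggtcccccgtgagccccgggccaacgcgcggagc

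Genes for folding and disposal of protein in the endoplasmic reticulum (ER) moved in a like pattern. Of 20 tested members, 6 rose and 4 fell in MC38, while 1 rose and 16 fell in AKR, and the medians were 0.05 in MC38 and -0.46 in AKR. There were 7 opposed genes, 6 of them up in MC38. Sel1l, a subunit of the ER degradation ligase, had 5299, 5335 and 5164 counts in MC38 sgB2m, against 4270, 3747 and 3575 in MC38 sgNT. It had 4939, 5241 and 5371 counts in AKR sgB2m, against 10110, 9776 and 10290 in AKR sgNT. The change was 0.45 in MC38 and -0.96 in AKR, with no overlap of groups in either line. The stress sensors Atf6 (0.26 in MC38, -0.91 in AKR) and Ern1, which encodes IRE1alpha (0.21, -0.79), were opposed in the same sense. Sdf2l1, an ER chaperone cofactor, was opposed the other way (-0.71, 0.47). Dnajb11, Hyou1 and Manf, which encode ER chaperones and a secreted stress protein, fell in both lines.

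The cytosolic and nuclear protein quality machinery moved the other way round. All 17 opposed members of the constitutive proteasome list, of 33 tested, were down in MC38 and up in AKR. In MC38 25 members fell and 1 rose, and in AKR 21 rose and 1 fell. The changes were small, with medians of -0.27 in MC38 and 0.21 in AKR. Psmd8, a subunit of the regulatory lid, had 8385, 8547 and 8599 counts in MC38 sgB2m, against 11180, 11860 and 12520 in MC38 sgNT. It had 9600, 9062 and 9165 counts in AKR sgB2m, against 6126, 6057 and 5925 in AKR sgNT. The groups were apart in each line, and the difference was -1.10 ± 0.059 (limma adjusted p 1.17e-08). Psma7, a core subunit, changed by -0.70 in MC38 and 0.16 in AKR, Psma2 by -0.37 and 0.40, and Psmb3 by -0.42 and 0.28. Psmd1, a scaffold subunit of the base, rose in both lines (0.28 and 0.27) and Psmd14, the deubiquitinase of the lid, fell in both (-0.33 and -0.14). The shared count was 1 without AKR sgB2m replicate 2 or without AKR sgNT replicate 2.

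Cytosolic heat shock genes followed the proteasome genes. Of 15 tested members 8 fell and 1 rose in MC38, and 7 rose and 1 fell in AKR (medians -0.17 and 0.26). There were 6 opposed genes and no shared gene. Cryab, a small heat shock protein, had 2510, 2170 and 2374 counts in MC38 sgB2m, against 4102, 4238 and 4463 in MC38 sgNT. It had 654, 601 and 681 counts in AKR sgB2m, against 165, 220 and 166 in AKR sgNT, and the groups were clearly apart in both lines. Hsph1 (an HSP110 exchange factor, -0.53 and 0.35), Dnaja1 (an HSP40 co-chaperone, -0.30 and 0.40), Hspb8 (a small heat shock protein, -0.17 and 0.37) and Hspa8 (the constitutive HSC70, -0.13 and 0.35) had the same signs. The 1 opposed member up in MC38 was Hspd1, the mitochondrial HSP60 (0.13, -0.30). It lies on chromosome 1, whose median change in MC38 was 0.21. With chromosome medians removed, 4 members were opposed and 0 of them were up in MC38. The heat shock letters GAANNTTC, searched on both strands, stood in 5 of 16 promoters matched to 11 members (31.2%), against 6.69% of all promoters. These 5 are not independent, since Hspd1 and Hspe1 share a site in overlapping windows and the Hspa1a and Hspa1b windows are near copies. Of the 4 matched opposed genes 2 held the letters, Dnaja1 and Hspd1. These were opposed in reverse senses, for Hspd1 only while chromosome medians were kept. The Dnaja1 promoter, from RefSeq at chr4:40722218-40722467 on the plus strand of GRCm38.p6, is shown as that of the opposed HSP40 gene. Its match begins 124 bases before the start.
Dnaja1: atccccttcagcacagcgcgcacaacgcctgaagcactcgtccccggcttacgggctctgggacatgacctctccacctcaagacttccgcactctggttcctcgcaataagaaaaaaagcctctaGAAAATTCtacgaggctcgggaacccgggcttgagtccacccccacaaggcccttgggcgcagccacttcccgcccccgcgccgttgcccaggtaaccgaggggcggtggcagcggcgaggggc

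NRF2 targets and NADPH enzymes, which detoxify oxidants and recycle glutathione and thioredoxin, fell in part in MC38 and rose in AKR. Of 17 tested members 2 rose and 9 fell in MC38, and 14 rose and 2 fell in AKR, with medians of -0.14 in MC38 and 0.40 in AKR. All 8 opposed genes were down in MC38 and up in AKR. Blvrb, a biliverdin reductase, had 1560, 1429 and 1370 counts in MC38 sgB2m, against 1908, 1866 and 1923 in MC38 sgNT. It had 3029, 2600 and 2756 counts in AKR sgB2m, against 1510, 1488 and 1635 in AKR sgNT. The change was -0.39 in MC38 and 0.85 in AKR, and no groups overlapped. Srxn1 (sulfiredoxin, -0.31 and 0.80), Gsr (glutathione reductase, -0.33 and 0.42) and Taldo1 (transaldolase, -0.23 and 0.52) did likewise. Nqo1, the quinone reductase often read as an NRF2 reporter and picked after values were seen, rose in both lines (0.98 and 1.25). Prdx1, a peroxiredoxin picked in the same way, was not called in MC38 (0.07) and rose in AKR (1.18). The antioxidant letters TGACNNNGC stood in 5 of 17 promoters of this list (29.4%) and 5 of 29 of the proteasome list (17.2%), against 10.2% of all promoters. Few of them belonged to opposed genes. Of the opposed genes with a matched promoter, 2 of 6 in this list (Gclm and Txnrd1) and 1 of 15 in the proteasome list (Psmb5) held them. The shared gene G6pdx also did.

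**Figure D3:**
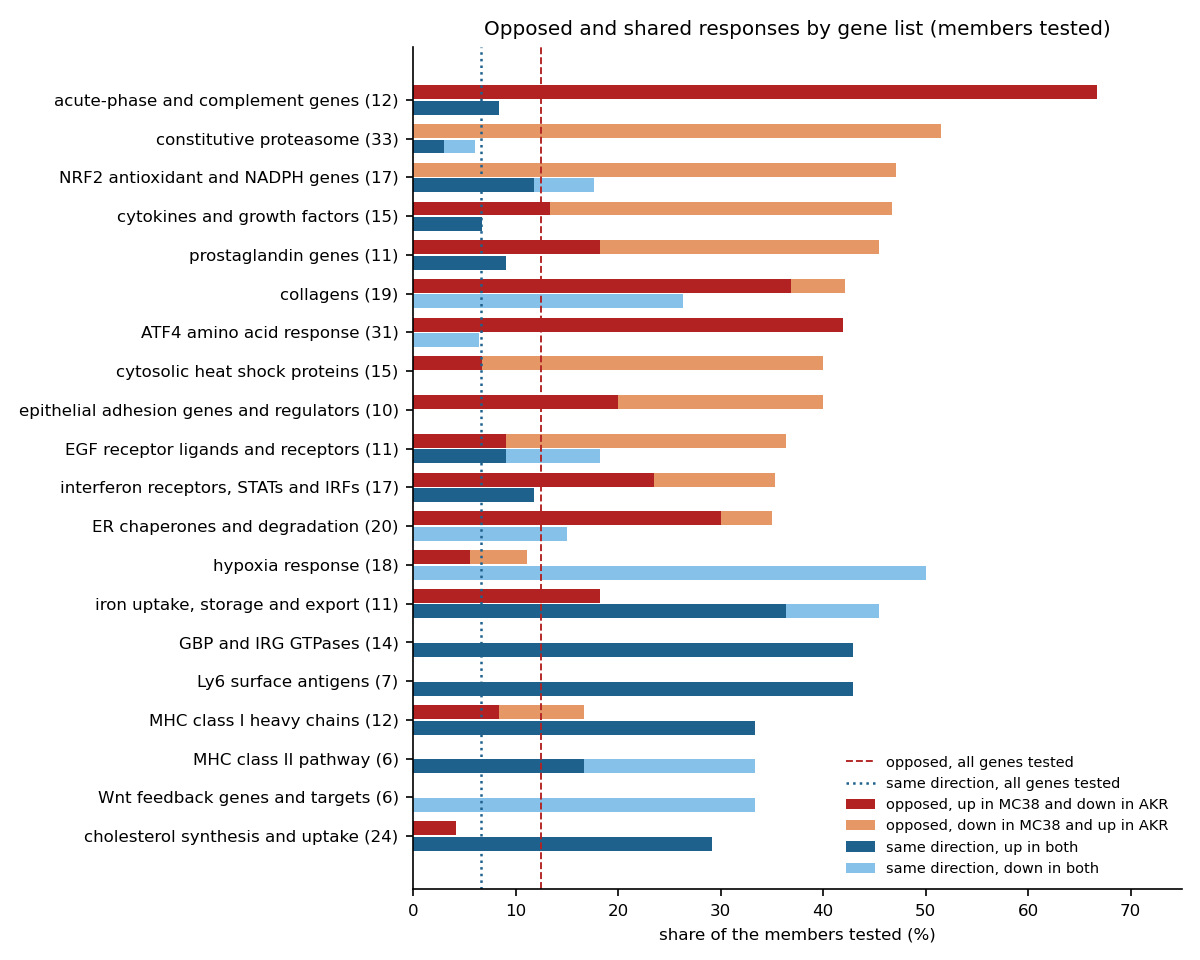
Share of tested members that were opposed (red, up in MC38; orange, down in MC38) or shared (dark blue, up in both; light blue, down in both) in 20 gene lists, with a dashed line at 12.5% and a dotted line at 6.64%, the opposed and shared percentages over all tested genes. The opposed members of the acute-phase and ATF4 lists, and all but 1 of those of the ER and collagen lists, are up in MC38, those of the proteasome and NRF2 lists and all but 1 of the heat shock list are down in MC38, and GBP and IRG GTPases have no opposed member.

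**Figure D4:**
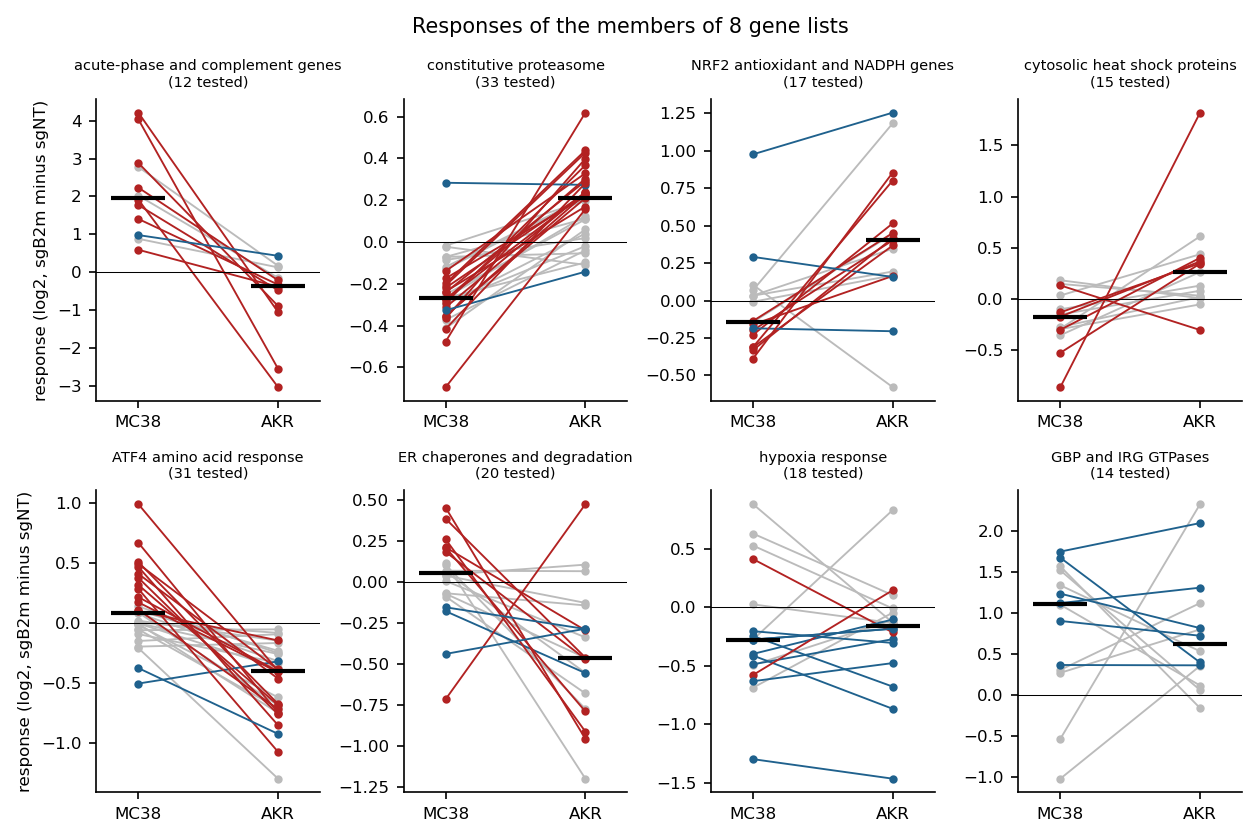
Log2 change of sgB2m over sgNT of each tested member of 8 lists, joined by a line between MC38 (left) and AKR (right), with opposed genes in red, shared genes in blue, others in grey and the list median as a black bar. Lines of the ATF4 list slope down toward AKR (medians 0.087 and -0.40), and those of the proteasome list slope up (medians -0.27 and 0.21).

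Secreted cytokines and growth factors were opposed gene by gene and in both senses. Of 15 tested members (20 in the list) 7 were opposed, 2 up and 5 down in MC38, and Lif, a cytokine of the IL-6 family, rose in both (0.58 and 0.51). Il11, another cytokine that signals through gp130, had 30.4, 26.1 and 25.7 counts in MC38 sgB2m, against 102, 143 and 109 in MC38 sgNT. It had 728, 588 and 629 counts in AKR sgB2m, against 191, 260 and 212 in AKR sgNT. Il7, a survival factor of lymphocytes, stood the other way, at 499, 424 and 546 counts in MC38 sgB2m, against 256, 210 and 258 in MC38 sgNT. In AKR Il7 had 24.9, 24.5 and 23.5 counts in sgB2m, against 70.5, 54.5 and 47.2 in sgNT, so both genes had groups that did not overlap. Pdgfb, a platelet-derived growth factor chain, changed by -0.75 in MC38 and 1.14 in AKR, and Tslp, an epithelial cytokine that acts on dendritic cells, by -2.31 and 0.66. Csf1, the macrophage growth factor, changed by 0.85 and -0.34.

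Other surface and secreted molecules stood among the genes with the lowest differences. Nt5e, which encodes CD73, the ectoenzyme that makes adenosine from AMP, had 57.5, 31.5 and 17.1 counts in MC38 sgB2m, against 424, 384 and 315 in MC38 sgNT. It had 219, 237 and 207 counts in AKR sgB2m, against 107, 152 and 91.5 in AKR sgNT. Sema7a, a membrane-anchored semaphorin, changed by -1.35 in MC38, where sgB2m libraries had 151, 199 and 213 counts against 474, 453 and 502 in sgNT. In AKR it changed by 2.92, with 94.5, 115 and 109 counts in sgB2m against 19.8, 7.78 and 14.4 in sgNT. Icam5, an adhesion molecule of the ICAM family, changed by -1.60 and 1.97, and Nbl1, a secreted BMP antagonist, by -1.62 and 1.5. Evi2a, which lies inside an intron of Nf1 and may share reads with it, changed by -1.64 and 1.77, Sec14l2, a lipid-binding protein, by -1.89 and 1.18, and Kcnab3, a potassium channel beta subunit, by -1.07 and 1.95.

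Among the opposed prostaglandin genes, those of synthesis and those of transport had reverse signs, a grouping made after values were seen. Of 11 tested members 5 were opposed. Ptgs2, the inducible cyclooxygenase COX-2, had 4987, 5043 and 5210 counts in MC38 sgB2m, against 8510, 8105 and 7537 in MC38 sgNT. It had 36280, 38430 and 38200 counts in AKR sgB2m, against 25710, 25550 and 26240 in AKR sgNT. The groups did not overlap in either line. Ptges, the prostaglandin E synthase (-0.31 in MC38, 0.33 in AKR), and Pla2g4a, the phospholipase that frees arachidonate (-0.20, 0.24), had the signs of Ptgs2. The prostaglandin carriers Slco2a1 (1.88, -0.72) and Abcc4 (0.61, -0.31) had the reverse signs. Without chromosomes 1 and 18, which removes Ptgs2 and Pla2g4a, 3 of 9 tested members were opposed. Ptgr1, which inactivates prostaglandins, rose in both lines (0.22 and 1.05) but was not shared without MC38 sgNT replicate 2.

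EGF family ligands and receptors and epithelial adhesion genes held opposed members, but their counts rested on few libraries. In the EGF list, 4 of 11 tested members were opposed (36.4%, against 12.5% of all tested genes). The count was 2, nearer the share of all genes, without AKR sgB2m replicate 1, AKR sgB2m replicate 3 or AKR sgNT replicate 1. With all libraries it was also 2 without the filter on level (13 tested) or without the intensity trend. Btc, the ligand betacellulin, had 31.4, 27.1 and 41.8 counts in MC38 sgB2m, against 135, 175 and 166 in MC38 sgNT. It had 1114, 1198 and 1107 counts in AKR sgB2m, against 637, 532 and 631 in AKR sgNT. The receptor Erbb3 (-1.50 in MC38, 1.11 in AKR) and the ligand Hbegf (-1.12, 0.28) had the signs of Btc, while the ligand Nrg1 had the reverse (0.66, -0.67) with AKR groups that overlapped. Egfr, picked after values were seen, fell in MC38 (9.54 ± 4.51 counts in sgB2m and 99.7 ± 22.6 in sgNT, SD, n = 3). In AKR it was not called (-0.61, limma adjusted p 0.113). Its AKR groups did not overlap, at 708.4, 943.7 and 784.5 counts in sgB2m against 1202, 1130 and 1375 in sgNT. The fit gave Egfr the same SE in both lines, and that SE includes the spread of the low MC38 counts. In the epithelial list, 4 of 10 tested members (29 in the list) were opposed (40%). The count was 2, again nearer the share of all genes, without AKR sgB2m replicate 3 or without AKR sgNT replicate 1. The mucin Muc1 (2.03, -0.77) and the tight junction scaffold Tjp1 (0.62, -0.24) were up in MC38, and the desmosomal proteins Pkp3 (-1.24, 0.42) and Jup (-0.66, 0.30) were down in MC38.

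Interferon receptors and factors held opposed members in both senses. Of 17 tested interferon receptors, STATs and IRFs 6 were opposed (35.3%, against 12.5% of all tested genes). The count was 3, nearer the share of all genes, without AKR sgB2m replicate 3 or without AKR sgNT replicate 1. Stat3, the factor that carries gp130 signals, had 6128, 6170 and 5950 counts in MC38 sgB2m, against 3525, 3171 and 3448 in MC38 sgNT. It had 5439, 5925 and 5676 counts in AKR sgB2m, against 6337, 6114 and 6415 in AKR sgNT. The groups did not overlap in either line, and the change was 0.85 in MC38 and -0.15 in AKR. Tyk2 (a receptor-bound kinase, -0.43 and 0.31) and Irf3 (a factor activated by nucleic acid sensors, -0.33 and 0.24) had the reverse signs. Stat2 and the receptor chain Ifngr2 rose in both lines, and the shared count was 1 without MC38 sgB2m replicate 2, MC38 sgB2m replicate 3, MC38 sgNT replicate 1 or MC38 sgNT replicate 2.

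The interferon-inducible GTPases, which attack the vacuoles of intracellular microbes, had no opposed member. Of 14 tested GBP and IRG genes, 10 rose in MC38, 8 rose in AKR and none fell in either line, and 6 were shared. The medians were 1.11 in MC38 and 0.63 in AKR, and the median difference was 0.09. Tgtp2 had 144, 73.8 and 130 counts in MC38 sgB2m, against 29.1, 28.7 and 40.9 in MC38 sgNT, and 33.8, 44.9 and 32 in AKR sgB2m, against 4.41, 10.7 and 9.63 in AKR sgNT. Igtp had 342, 302 and 302 counts in MC38 sgB2m, against 123, 227 and 169 in MC38 sgNT, and 304, 284 and 277 in AKR sgB2m, against 175, 167 and 180 in AKR sgNT. Every sgB2m library was above every sgNT library for both genes. Gbp7 (1.24, 0.82), Tgtp1 (1.12, 1.31), Irgm1 (0.37, 0.36) and Irgm2 (1.67, 0.40) were the other shared members. These are tandem families, and Tgtp1 and Tgtp2 are near copies, so reads may be divided between members. Not every member moved alike, since Gbp2, picked after values were seen, rose in MC38 (1.52) and was not called in AKR (0.06), and Gbp8, picked in the same way, was not called in MC38 (-0.54) and rose in AKR (2.33).

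MHC class I heavy chains rose in both lines more often than they opposed. Of 12 tested genes 7 rose and 1 fell in MC38, and 6 rose and 1 fell in AKR, with medians of 0.32 and 0.33. Shared genes were 4 (33.3%, against 6.64% of all tested genes), and 3 to 5 as single libraries were left out. Opposed genes were 2 (16.7%, near the 12.5% of all tested genes). The classical chains H2-K1 (0.23 in MC38, 0.33 in AKR) and H2-D1 (0.37, 0.17) and the nonclassical H2-Q4 (0.27, 0.51) and H2-T22 (0.49, 0.37) were shared. H2-K1 had 14490, 15550 and 14860 counts in MC38 sgB2m, against 12050, 12820 and 13520 in MC38 sgNT, and 15800, 14360 and 15340 in AKR sgB2m, against 12050, 12020 and 12070 in AKR sgNT. The sgB2m libraries were higher without overlap, by less than 1.5-fold, in both lines. Heavy chain genes are close paralogs and their reads may be divided. H2-T23, which encodes Qa-1, the ligand of the NKG2A receptor of NK cells, was opposed, at 211, 184 and 237 counts in MC38 sgB2m against 361, 342 and 349 in MC38 sgNT. In AKR H2-T23 had 1859, 1669 and 1782 counts in sgB2m, against 1334, 1189 and 1212 in sgNT. Hfe, the class I-like regulator of iron uptake, was opposed the other way (0.62, -0.43).

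The interferon-stimulated response letters, 2 runs of GAAA with any 2 bases between them, stood on either strand in 8 of 9 promoters matched to 8 GTPase genes (88.9%), against 2.98% of all promoters, and all 6 shared GTPase genes held them. In the heavy chain list 2 of 10 promoters held them, those of H2-T22, which was shared, and of H2-T23, which was opposed. The Igtp promoter and these 2 promoters are printed for that contrast, from RefSeq on GRCm38.p6. They lie at chr11:58199306-58199555 on the plus strand (Igtp, match 34 bases before the start), at chr17:36042743-36042992 on the minus strand (H2-T22, match 191 bases before the start) and at chr17:36032702-36032951 on the minus strand (H2-T23, match 124 bases before the start).
Igtp: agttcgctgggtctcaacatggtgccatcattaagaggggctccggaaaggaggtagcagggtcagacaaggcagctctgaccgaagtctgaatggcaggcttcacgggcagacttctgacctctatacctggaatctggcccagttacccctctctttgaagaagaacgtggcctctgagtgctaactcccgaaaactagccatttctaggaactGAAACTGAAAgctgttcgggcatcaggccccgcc
H2-T22: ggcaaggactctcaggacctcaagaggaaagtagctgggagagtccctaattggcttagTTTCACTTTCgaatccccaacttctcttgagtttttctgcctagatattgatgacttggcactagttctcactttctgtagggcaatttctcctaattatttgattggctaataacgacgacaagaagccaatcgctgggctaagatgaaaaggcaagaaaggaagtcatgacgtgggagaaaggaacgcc
H2-T23: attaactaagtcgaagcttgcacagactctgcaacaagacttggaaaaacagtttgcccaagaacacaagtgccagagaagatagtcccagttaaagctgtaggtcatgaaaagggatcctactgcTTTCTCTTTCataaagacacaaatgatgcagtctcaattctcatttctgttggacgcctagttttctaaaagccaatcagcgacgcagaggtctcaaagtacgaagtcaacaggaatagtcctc

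Peptide loading genes showed both patterns. Of 14 tested members 3 were opposed (21.4%, against 12.5% of all tested genes), all up in MC38. They were the aminopeptidase Erap1 (0.73 in MC38, -0.44 in AKR), the tapasin-like editor Tapbpl (0.47, -0.71) and the lectin chaperone Canx (0.12, -0.29). Nlrc5, the transactivator of class I genes, rose in both lines, with 3340, 3212 and 3260 counts in MC38 sgB2m, against 2749, 2465 and 2214 in MC38 sgNT, and 1408, 1635 and 1459 in AKR sgB2m, against 1121, 1172 and 1187 in AKR sgNT. Tapbp, which encodes tapasin, rose in both (0.17, 0.30), and the shared count was 1 without MC38 sgB2m replicate 3. Tap1, a subunit of the peptide pump picked after values were seen, was not called in MC38 (0.05) and rose in AKR (0.61).

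Of 12 tested chemokines 1 was opposed and 1 was shared (8.33% each), against 12.5% and 6.64% of all tested genes. Cxcl16, the ligand of CXCR6 named in the series title, had 467, 414 and 355 counts in MC38 sgB2m, against 606, 707 and 677 in MC38 sgNT, a change of -0.69 ± 0.27 that was not called (adjusted p 0.0615) although the groups did not overlap. In AKR it had 8.96, 7.14 and 3.76 counts in sgB2m, against 38.6, 22.4 and 25 in sgNT, and fell by 1.99 on the log2 scale. The fit used 1 spread per gene for both lines, so the MC38 SE of 0.27 includes the spread of these low AKR counts. The missing call in MC38 is therefore not evidence of no change there. The difference of 1.30 ± 0.38 was called (limma adjusted p 0.0133) at these low AKR counts. It was 0.64 and not called (adjusted p 0.0759) with a pseudocount of 8 in place of 1. The opposed chemokine was Cx3cl1, the membrane-bound fractalkine (1.02 in MC38, -0.19 in AKR), and the shared one was Cxcl1, a neutrophil attractant (0.52, 1.04). No chemokine was opposed without MC38 sgB2m replicate 3, AKR sgB2m replicate 3, AKR sgNT replicate 1 or AKR sgNT replicate 3, and 2 were without MC38 sgNT replicate 1 or AKR sgB2m replicate 1. The shared count was 2 without AKR sgB2m replicate 1, AKR sgB2m replicate 3 or AKR sgNT replicate 1. Cxcl5, picked after values were seen, rose in MC38 (232, 212 and 222 counts in sgB2m, against 0, 0 and 5.75 in sgNT) and was not called in AKR (-0.66). Its AKR groups did not overlap, at 27.9, 41.8 and 43.3 counts in sgB2m against 69.4, 45.7 and 64.5 in sgNT. Its AKR SE includes the spread of the MC38 libraries near 0.

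Hypoxia genes, the targets of HIF-1, were shared more than any other list in number. Of 18 tested members 9 fell in both lines and 2 were opposed (1 each way). The opposed count was 1 without AKR sgB2m replicates 1 or 2 or AKR sgNT replicates 1 or 3. In MC38 12 members fell and 4 rose, and in AKR 11 fell and 2 rose. Bnip3, a mitophagy receptor, had 1816, 1944 and 1885 counts in MC38 sgB2m, against 2791, 3027 and 2926 in MC38 sgNT, and 1816, 1561 and 1673 in AKR sgB2m, against 2302, 2267 and 2447 in AKR sgNT. No libraries overlapped between guides. Ero1l, the ER oxidase (-0.41 in MC38, -0.87 in AKR), P4ha2, a collagen prolyl hydroxylase (-0.49, -0.27), Ankrd37 (-1.30, -1.46), an ankyrin repeat protein induced by HIF-1, and Pdk1, the kinase that shuts pyruvate dehydrogenase (-0.24, -0.68), also fell in both. Hif1a itself was opposed (0.41, -0.21), and so was Mxi1, a MAX partner (-0.58, 0.15).

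Of 11 tested iron genes 5 were shared (45.5%), and of 24 cholesterol genes 7 were (29.2%), against 6.64% of all tested genes. The difference between the lines was called for 6 of the iron genes (54.5%) and for 17 of the cholesterol genes (70.8%), against 44.9% of all tested genes. Of the iron genes 4 rose and 1 fell in both lines, a count of 5 that was 3 without MC38 sgB2m replicate 3 or without MC38 sgNT replicate 1. Tfrc, the transferrin receptor, had 3626, 3346 and 3315 counts in MC38 sgB2m, against 5401, 5039 and 4680 in MC38 sgNT, and 2612, 3019 and 2923 in AKR sgB2m, against 4481, 4688 and 4798 in AKR sgNT. Fth1, the ferritin heavy chain (0.40 in MC38, 0.39 in AKR), Slc11a2, an iron importer (0.40, 0.49), Steap3, an iron reductase (0.27, 1.40), and Ftl1, the ferritin light chain (0.14, 1.28), rose in both. The ferroxidase Cp was opposed, at 3011 ± 91.3 counts (SD, n = 3) in MC38 sgB2m and 370 ± 34.6 in MC38 sgNT, and at 658 ± 60.8 in AKR sgB2m and 1405 ± 71.7 in AKR sgNT. Of 24 tested cholesterol genes 13 rose and none fell in MC38, 15 rose and 3 fell in AKR, and 7 rose in both, with medians of 0.15 and 0.24. Hsd17b7 (0.37, 0.79), Mvd (0.28, 0.81) and Sqle (0.37, 0.23), enzymes of sterol synthesis, were shared, and the synthase Lss was opposed (0.28, -0.47).

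The remaining shared lists were small. Of 7 tested Ly6 surface antigens 3 rose in both lines, Ly6a (0.42 in MC38, 0.48 in AKR), Ly6c2 (0.57, 0.32) and Ly6c1 (0.60, 0.16), and only 1 did without AKR sgB2m replicate 1 or without AKR sgNT replicate 3. These paralogs may share reads. Of 6 tested Wnt targets the cyclin Ccnd1 (-0.26, -0.22) and the Wnt inhibitor Apcdd1 (-1.06, -0.45) fell in both. Of 6 tested MHC class II pathway genes Cd74, the invariant chain (-1.16, -1.24), fell and Rfx5, a promoter factor (0.22, 0.22), rose in both, with overlapping MC38 groups for each. That count of 2 was unchanged without MC38 sgNT replicate 2 and was 0 or 1 without any 1 of the other libraries.

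Shared genes named by the smaller of their 2 responses, among those with a group mean log2 value of at least 6 in each line and no overlap of groups, came from several functions. Slpi, a secreted protease inhibitor, had 2464, 2590 and 2364 counts in MC38 sgB2m, against 393, 313 and 456 in MC38 sgNT, and 2976, 2596 and 2630 in AKR sgB2m, against 836, 862 and 828 in AKR sgNT. It rose in both lines, by 0.99 ± 0.15 more in MC38 on the log2 scale. Plin4, a lipid droplet coat protein (1.30 in MC38, 1.30 in AKR), Ephx1, an epoxide hydrolase (1.19, 1.24), Fgf10, a fibroblast growth factor (1.16, 1.32), Cpne8, a copine (1.09, 1.43), and Ifi207, of the interferon-inducible PYHIN family (2.60, 1.5), also rose in both. Hes1, the repressor that Notch induces, had 128, 108 and 130 counts in MC38 sgB2m, against 365, 344 and 341 in MC38 sgNT, and 421, 410 and 530 in AKR sgB2m, against 1200, 1077 and 1138 in AKR sgNT. Itga1, a collagen-binding integrin (-1.38, -1.33), Csgalnact1, a chondroitin sulfate enzyme (-1.33, -1.37), and Dlgap1, a scaffold protein (-1.92, -1.49), fell in both as well. The difference was not called for Plin4, Ephx1, Fgf10, Cpne8, Hes1, Itga1, Csgalnact1 or Dlgap1, which does not show that the responses were equal. The difference was -0.05 ± 0.13 for Ephx1 and -0.18 ± 0.16 for Hes1.

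**Figure D5:**
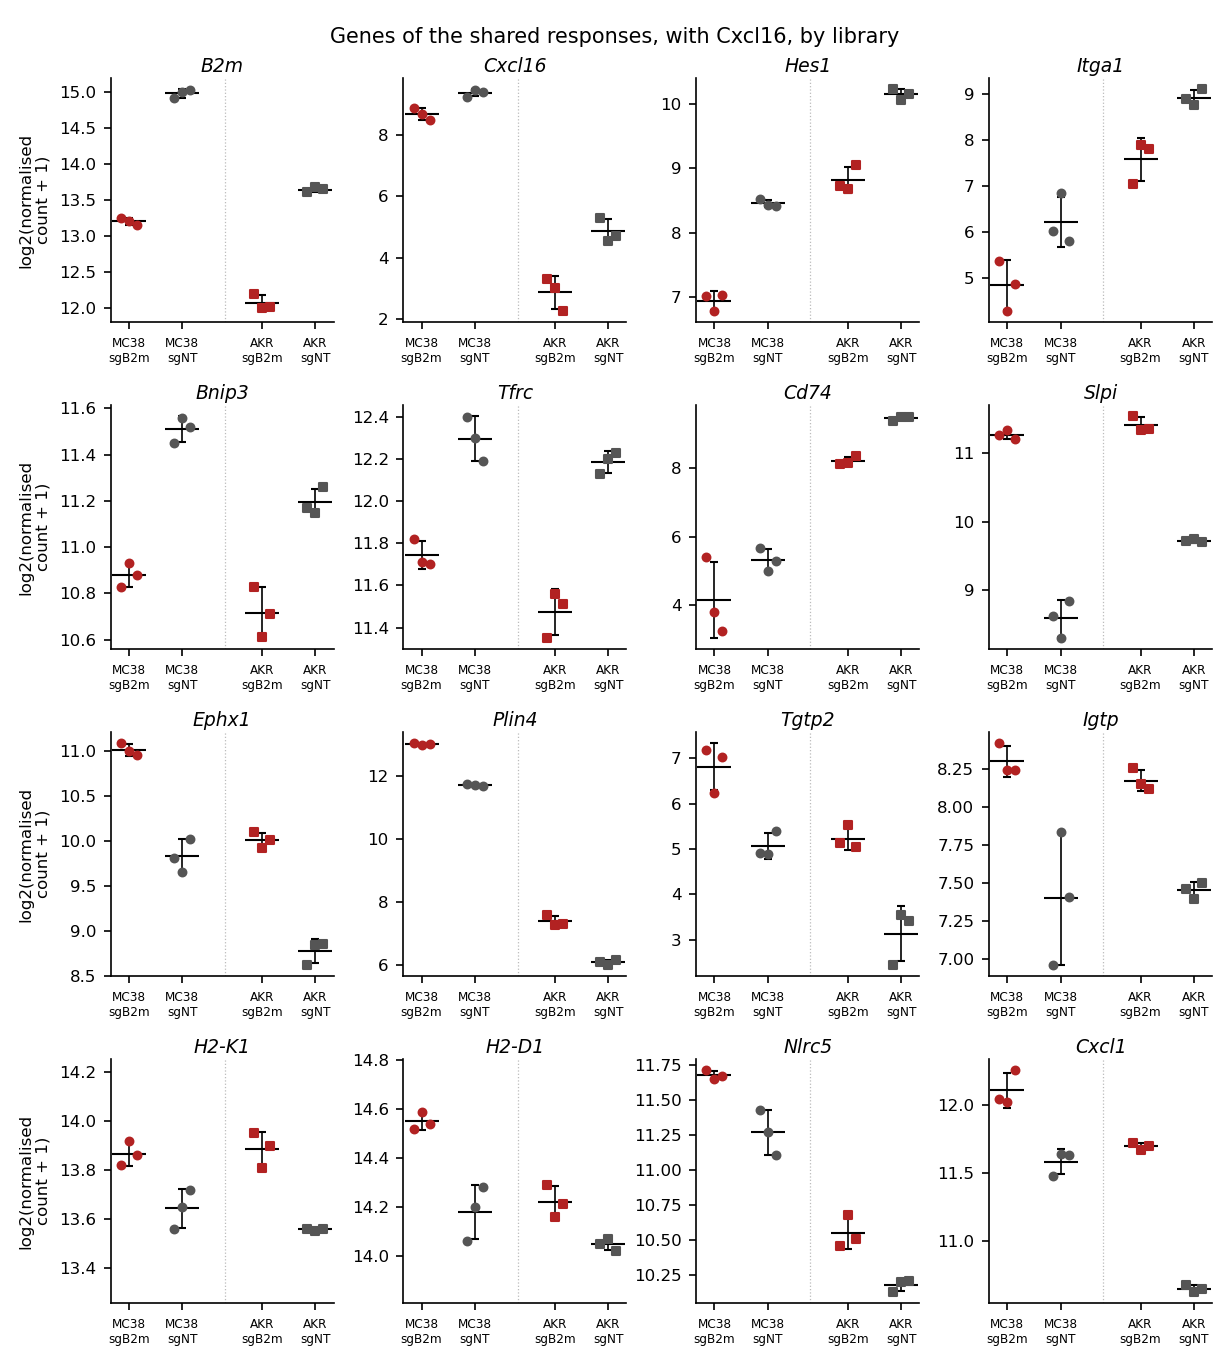
Log2(normalised count + 1) of 15 shared genes and Cxcl16 in every library (y axis), with sgB2m in red and sgNT in grey, MC38 as circles and AKR as squares, and a bar for the mean ± SD of 3 libraries. B2m, Hes1, Itga1, Bnip3, Tfrc and Cd74 are lower in sgB2m by group mean in both lines, and Slpi, Ephx1, Plin4, Tgtp2, Igtp, H2-K1, H2-D1, Nlrc5 and Cxcl1 are higher in both.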

How the data were processed

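Each line's table was used as deposited. The authors' log2 normalised counts were made, per the submitters' processing notes, with FastQC 0.11.5, STAR and DESeq2 on mm10. The gene counter, its annotation, its strand setting and the versions of STAR and DESeq2 are not given in the sources used here, so overlapping and antisense genes may share reads. After 2 was raised to each value and a pseudocount of 1 taken away, 100% of values were whole multiples of 1 step per library within 0.05 reads, which gave the depths and the normalised counts printed. Size factors were set within each line.

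The 4 groups of 3 libraries were fitted together with limma 3.58.1 (R 4.3.3, statmod 1.5.0) and an intensity trend, without covariates. Each gene had 1 estimate of the spread for both lines, so noise at low counts in 1 line widens the SE in the other. A gene not called in 1 line may therefore still have groups that do not overlap there. Genes were kept where 3 or more libraries of each table had a log2 value of 3.5 or above. Calls used Benjamini-Hochberg adjusted p under 0.05 over 14674 genes. Fold changes are on the log2(normalised count + 1) scale and understate changes of low genes. In simulated data of the difference of responses (14674 genes), 59.7% of 67 genes changed 1.5-fold, 89.55% of 67 changed 2-fold and 93.94% of 66 changed 4-fold were called, with 9 false calls. The simulation gave all genes the same fixed spread and changed only these genes, in MC38 sgB2m alone. Its rates therefore check the procedure and do not give the error rates of these data.

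Genes were named by a rule: B2m and Cxcl16, the 10 highest and 10 lowest differences among opposed genes, 6 shared genes in each direction by the smaller change, and up to 4 members of each list described, with filters on level (log2 value of at least 6), overlap of groups and symbol type for the first sets. A few genes that the rule names are not reported here. Every other list member named was picked after its values were seen. Members and lists were chosen with earlier results of these data known. Promoters came from RefSeq tables of GRCm38.p6. Alternatives covered filters, pseudocount, scaling, trend, variances, voom weights on the recovered reads, the replicate number as a block, each library left out, and chromosome medians.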

Additional observations from a re-analysis of the deposited data

Results flagged for a closer look

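The response to the B2m guide differed between MC38 and AKR for 6582 of 14674 genes by the limma test of the difference itself (Benjamini-Hochberg adjusted p under 0.05). Every gene below is listed because that test called it, and values are the log2 response of MC38 minus that of AKR.

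The targeted gene B2m differed by -0.20, a larger fall in MC38, with a call that was lost in several alternatives. Cxcl16 differed by 1.30, with a lower AKR response at low AKR counts. Opposed genes with high differences were Col12a1 (6.38), Lcn2 (5.27), Fat4 (5.00), Saa3 (4.95), Thbs1 (4.84), Masp1 (4.66), Cp (4.12), Elmo1 (4.12) and Slc9a9 (4.08), all up in MC38 and down in AKR. The 10 with the lowest were Nt5e (-4.46), Sema7a (-4.27), Il11 (-3.62), Icam5 (-3.56), Evi2a (-3.41), Btc (-3.15), Nbl1 (-3.11), Sec14l2 (-3.07), Kcnab3 (-3.02) and Tslp (-2.97), all down in MC38 and up in AKR. With 3 libraries in a group, no test of single outlying libraries was made.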

How the results depend on the processing

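The counts of called genes stayed within 1.5 times of their values under all 23 alternatives. With each library left out in turn, 5976 to 6913 genes differed between the lines, 4352 to 5601 were called in MC38, 5216 to 6379 in AKR, 1513 to 2089 were opposed and 793 to 980 shared. With the replicate number as a block, these counts were 6311, 4957, 5854, 1694 and 874. Deviations of libraries with the same number correlated at -0.036 to 0.069, so the numbers were not taken to pair the libraries. With chromosome medians removed, chosen after seeing the data, 6409 genes differed. Without chromosomes 1 and 18, also chosen after seeing the data, 5988 differed, 1620 were opposed and 840 shared. The opposed genes kept were 76.1% with chromosome medians removed, when 2 became shared, and 80.2% to 99.2% under the other alternatives. Of 2417 differences of 106 named genes under alternatives, 2363 kept their side of the threshold, 44 lost and 10 gained a call, and 0 changed sign while called. The losses were in B2m, Cxcl16, H2-D1, H2-Q4, Sqle, Ifi207 and Nrg1. For B2m the adjusted p was 0.0687 with the replicate block. Among lists described here, quantile scaling moved the opposed count to 14 for nuclear respiratory chain genes (8 as deposited), 6 for glycolysis (3 as deposited), 3 for cholesterol genes (1 as deposited) and 2 for chemokines (1 as deposited), and to 9 for ATF4 genes (13 as deposited). Median centring moved it to 1 for hypoxia genes (2 as deposited) and 2 for cholesterol genes. With chromosome medians removed it was 5 for peptide loading genes (3 as deposited), 4 for respiratory chain genes, 3 for cholesterol genes and 1 for hypoxia genes. The shared p53 targets were 4 under each of these 3 settings (2 as deposited), and the shared proteasome genes were 1 under quantile scaling, with chromosome medians removed and without chromosomes 1 and 18 (2 as deposited). The cause was not tested. Depth limits low genes such as Cxcl16 in AKR.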

Other observations

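The genes named here, from lists outside those described above, were picked after values were seen. Over all tested genes, 17% rose and 18.7% fell in MC38, and 20.1% rose and 21.3% fell in AKR. Opposed genes were 12.5% and shared genes 6.64%. Type I interferon effectors, the antiviral genes that type I interferon induces, rose more often in MC38. Of 37 tested, 23 rose and 2 fell in MC38, and 10 rose and 2 fell in AKR, with 6 shared, all up, and medians of 0.58 and 0.26. Irf7, which amplifies interferon production, rose in both lines (1.14 in MC38, 0.68 in AKR). Rsad2, the antiviral enzyme viperin, was opposed (-1.06, 0.73), as were Uba7 (0.96, -0.35) and Lgals3bp (0.55, -0.53). That opposed count of 3 (8.11%, below the share of all tested genes) was 1 without AKR sgB2m replicates 2 or 3 or AKR sgNT replicates 1, 2 or 3. Targets of p53, which arrest the cell cycle or promote apoptosis, mostly fell in MC38 (14 of 23 fell, 2 rose) and rose in AKR (13 rose, none fell), with 7 opposed. Cdkn1a, the cell cycle inhibitor p21, had 2230 ± 64 normalised counts (SD, n = 3) in MC38 sgB2m and 4855 ± 190 in MC38 sgNT, and changed by -1.12 there and by 0.69 in AKR. Phlda3, a repressor of AKT, changed by -0.51 and 1.49, while Trp53inp1 rose in both (1.43, 0.64). Trp53 itself fell in MC38 (-0.17) and was not called in AKR (-0.01). The shared count of 2 was 4 without MC38 sgB2m replicate 2.

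ERK feedback genes, the phosphatases and inhibitors induced by MAP kinase signalling, differed between the lines for all 12 tested members. Of these 10 fell and 2 rose in MC38, and 3 fell and 1 rose in AKR. Dusp6, an ERK phosphatase, changed by -1.14 in MC38 and was not called in AKR (0.06), and Dusp4 was opposed (-1.27, 0.28). The opposed count of 3 was 1 without AKR sgNT replicate 3. Glycolysis genes fell in MC38 (15 of 17 fell, 1 rose), and in AKR 4 rose and 2 fell. Of 76 nuclear respiratory chain genes 37 fell and 4 rose in MC38, and 16 rose and none fell in AKR. The AKR rises of this list and of glycolysis genes were near the 20.1% of all tested genes. No respiratory chain gene was shared, and 8 were opposed (10.5%, below the 12.5% of all tested genes). That opposed count was 4 without MC38 sgB2m replicate 1 or MC38 sgNT replicate 2, 5 without MC38 sgB2m replicates 2 or 3, and 17 without MC38 sgNT replicate 1. TGF-beta and activin genes held 8 opposed and 6 shared members of 24. The matrix protein Ctgf (1.16 in MC38, -0.88 in AKR), the ligand Tgfb2 (0.98, -1.0) and the HLH inhibitor Id2 (0.61, -1.57) were opposed.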
